A study of Mus musculus with 17 samples.

Results

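The 9 genes described here encode proteins of central nervous system myelin: Mbp, Mobp, Mal, Mog, Mag, Cnp, Opalin, Ermn and Cldn11. They were picked by name as myelin genes, with earlier results of these data known, and all 9 were found among the 38355 Ensembl identifiers of the count files. Their levels were measured by RNA sequencing in the hand-dissected hippocampus of untreated wild-type C57BL/6J mice. There were 5 single-end libraries at 3 months (3M) and 6 at 24 months (24M), and 3 paired-end libraries at 3 months and 3 at 29 months (29M). To ask which myelin transcripts change with age, 24M was compared with the single-end 3M samples and 29M with the paired-end ones. Age and library type vary together between the aged groups, so 24M and 29M were not compared directly other than through their own 3M groups. All groups share strain, genotype and tissue, and no group carries a transgene or received a treatment.

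Myelin is the multilayered sheath that oligodendrocytes wrap around axons, and it speeds the conduction of action potentials. Basic proteins such as Mbp hold the cytoplasmic faces of compact myelin together, while adhesion proteins link the sheath to the axon and mark its outer surface. In the hippocampus, myelinated fibres run mainly in the alveus, the fimbria and the stratum lacunosum-moleculare. In bulk tissue, fewer oligodendrocytes and less RNA per oligodendrocyte cannot be told apart.

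Reads counted on genes ranged from 9213474 to 28438296 per library, and the 9 myelin genes held between 230 (Opalin) and 56478 (Mbp) counts in single samples. Libraries labelled 24M replicates 1 and 4 differed by less than the sampling noise. The variance of their differences was 0.406 times that of counting, against 1.23 or more in the other 135 pairs of libraries, so they were counted as 1 sample and 24M has n = 5. The labels do not state whether the other samples are separate animals beyond their numbering. The p-values judge differences between groups against the spread between these samples. Neuronal markers were abundant in all samples, with a summed level of 13712 to 16651 CPM (read counts scaled to a common library size). No measured marker of the 15 lists examined was at 0 throughout. A 3M single-end library stood apart: replicate 4 had a summed level of 614 CPM for 10 striatal markers, against 145 to 214 CPM in the other 4 of its group. The same library was the highest of its group for 7 of the 9 myelin genes.

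Per kilobase of annotated exon, Mbp was the most abundant of the 9 genes in every group. In the 3M single-end samples it stood at 273 ± 51.6 CPM per kb (SD, n = 5). Mobp followed with 138 ± 37.2, Cnp with 112 ± 17.1, Mal with 103 ± 21.3 and Cldn11 with 77.7 ± 18.8 CPM per kb. Mag had 47.2 ± 7.61, Mog 43.8 ± 8.08, Ermn 17.9 ± 5.76 and Opalin 9.20 ± 1.56 CPM per kb. In that group only Mbp and Mobp, and Mog and Ermn, were neighbours in this order whose ranges over samples did not overlap. The order of the 3M paired-end samples was the same. In both aged groups 1 pair had changed places. Mal lay above Cldn11 in 5 of 5 and 3 of 3 samples at 3M, whereas Cldn11 lay above Mal in 4 of 5 samples at 24M and 3 of 3 at 29M.

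In the main edgeR fit no myelin gene was called differentially expressed at either age. A call required both thresholds of the study, an adjusted p no higher than 0.05 and a log2 fold change of 0.5 or more in size. Of all genes tested, 1.98% were called at 24M (310 of 15683) and 1.45% at 29M (219 of 15097). With the adjusted p alone, 0 of 9 myelin genes passed at 24M and 1 of 9 at 29M, where the gene was Ermn. The same rule was met by 5.58% of all genes at 24M (3.21% higher and 2.37% lower) and by 2.99% at 29M (2.32% higher and 0.662% lower). At an unadjusted p under 0.05, 1 of 9 genes passed at 24M, beside 26.1% of all genes, and 5 of 9 at 29M, beside 17.3%. Unless DESeq2 is named, p-values are from edgeR's quasi-likelihood test, adjusted with Benjamini-Hochberg over all genes tested. The study took its thresholds with an earlier version of DESeq2. Run here, DESeq2 called Ermn at 24M (DESeq2 adjusted p = 0.0419), among 369 of 15683 genes, and no myelin gene at 29M.

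**Figure D1:**
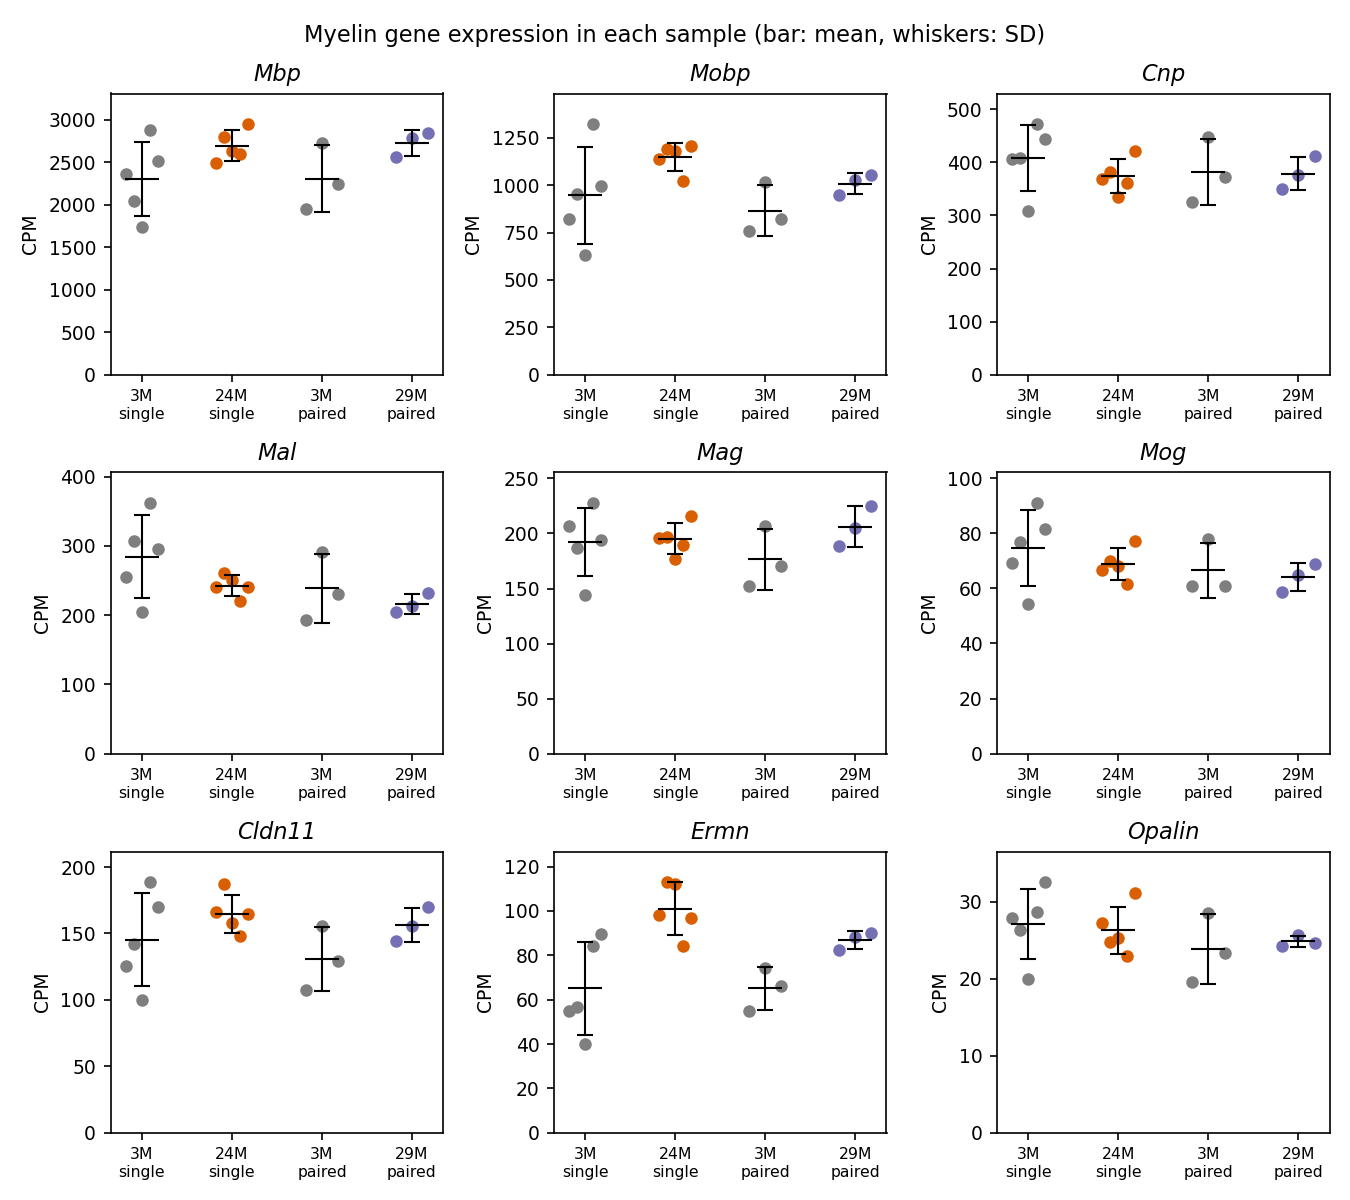
Level of each of the 9 myelin genes in CPM (vertical axes, starting at 0) in the 4 groups, where points are samples, bars are means and whiskers are SD (n = 5, 5, 3 and 3, with 24M replicates 1 and 4 as 1 sample). The aged samples lie closer together than the 3M samples in all 9 panels, and in the Ermn panel the 3 samples at 29M, between 82.4 and 90.0 CPM, lie above the 3 paired-end samples at 3M.

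The first genes encode proteins of compact myelin. Mbp (ENSMUSG00000041607, GRCm38 chromosome 18, 82475146 to 82585637, plus strand) encodes myelin basic protein. In the 3M single-end samples Mbp stood at 2363, 2041, 1742, 2878 and 2519.6 CPM, and at 24M at 2488, 2799.9, 2638, 2603 and 2956 CPM. All 5 samples at 24M lay above the 3M median, but the groups overlapped, and the log2 fold change was 0.22 ± 0.11 (SE, edgeR adjusted p = 0.2). In the paired-end samples Mbp stood at 1949.9, 2729.7 and 2252 CPM at 3M and at 2561, 2789 and 2851 CPM at 29M. The 29M values overlapped with 3M replicate 2 alone, with a log2 fold change of 0.24 ± 0.09 (SE, edgeR adjusted p = 0.189).

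Mobp (ENSMUSG00000032517, chromosome 9, 120149707 to 120181484, plus strand) encodes a small basic protein of the same compact layers. Its levels at 3M were 822, 954, 631, 1324 and 997 CPM in the single-end samples, and at 24M they were 1137, 1190.5, 1179.9, 1021 and 1205 CPM. Every 24M sample lay above 4 of the 5 samples at 3M and below the fifth, replicate 4. The log2 fold change was 0.28 ± 0.14 (SE, edgeR adjusted p = 0.235). The paired-end samples had 756, 1016 and 822 CPM at 3M and 948, 1025 and 1052 CPM at 29M, and the log2 fold change was 0.22 ± 0.08 (SE, edgeR adjusted p = 0.192).

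Mal (ENSMUSG00000027375, chromosome 2, 127633226 to 127656695, minus strand) encodes a small proteolipid that takes part in sorting membrane to myelin. Its fitted changes lay below 0. Mal levels were 254, 307, 204, 363 and 296 CPM at 3M in the single-end samples and 241, 260.3, 251, 219.8 and 241 CPM at 24M. The 24M samples lay within the range of the 3M samples, and the log2 fold change was -0.23 ± 0.12 (SE, edgeR adjusted p = 0.226). For Mal the paired-end samples gave 193, 291 and 231 CPM at 3M and 205, 213 and 233 CPM at 29M, and again the groups overlapped (log2 fold change -0.14 ± 0.10, SE, edgeR adjusted p = 0.534).

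Mog and Mag encode cell adhesion proteins of the immunoglobulin family, the first on the outermost surface of the sheath and the second on the innermost membrane that faces the axon. Mog (ENSMUSG00000076439, chromosome 17, 37010743 to 37023398, minus strand) stood at 69.3, 76.8, 54.5, 91.1 and 81.5 CPM at 3M and at 66.7, 70.1, 68.2, 61.6 and 77.3 CPM at 24M. At 3M in the paired-end samples it stood at 60.7, 78.0 and 61.0 CPM, and in the 29M samples at 58.6, 65.0 and 68.7 CPM. Neither age separated from 3M. In log2 units Mog differed by -0.12 ± 0.11 at 24M (SE, edgeR adjusted p = 0.529) and by -0.058 ± 0.09 at 29M (SE, adjusted p = 0.799).

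Mag (ENSMUSG00000036634, chromosome 7, 30899176 to 30914873, minus strand) was the flattest of the 9 genes at 24M. It measured 207, 187, 144, 228 and 194 CPM at 3M and 196, 197, 177, 189 and 216 CPM at 24M, for a log2 difference of 0.022 ± 0.10 (SE, edgeR adjusted p = 0.916). At 29M it measured 188, 205 and 225 CPM, against 153, 207 and 170.4 CPM at 3M, and its log2 fold change was 0.22 ± 0.09 (SE, edgeR adjusted p = 0.218). Only 3M replicate 2 lay among the 29M values.

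Cnp and Opalin encode proteins found mainly outside compact myelin. Cnp (ENSMUSG00000006782, chromosome 11, 100574904 to 100591729, plus strand) encodes a cyclic nucleotide phosphodiesterase that keeps cytoplasmic channels in the sheath open. It stood at 407, 408, 308, 473 and 444 CPM at 3M and at 369, 382, 334, 361 and 422 CPM at 24M, and in the paired-end samples at 326, 448 and 371 CPM at 3M and 349, 376 and 412 CPM at 29M. The aged samples of Cnp lay within the 3M range at both ages. Fitted log2 changes were -0.13 ± 0.10 at 24M (SE, edgeR adjusted p = 0.423) and -0.012 ± 0.09 at 29M (SE, adjusted p = 0.965). On the opposite strand 154 exon bases of Cnp are shared with Dnajc7, whose level was 143 CPM at 3M and 149 CPM at 24M. Whether strand was used in counting is not stated, so the gene of reads in the shared bases is uncertain.

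Opalin (ENSMUSG00000050121, chromosome 19, 41061710 to 41077113, minus strand) encodes a transmembrane glycoprotein of oligodendrocytes and had the lowest level of the 9 genes. It ranged from 20.0 to 32.6 CPM at 3M and from 22.9 to 31.1 CPM at 24M in the single-end samples. Its paired-end values ranged from 19.5 to 28.6 CPM at 3M and from 24.3 to 25.7 CPM at 29M. Opalin was the single gene whose direction differed between ages, with log2 changes of -0.049 ± 0.12 at 24M (SE, edgeR adjusted p = 0.823) and 0.049 ± 0.11 at 29M (SE, adjusted p = 0.865), neither distinguishable from 0.

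Cldn11 (ENSMUSG00000037625, chromosome 3, 31149920 to 31164324, plus strand) encodes the claudin that forms tight junctions between the layers of the sheath. It stood at 125, 142, 100.1, 189 and 169.8 CPM at 3M and at 166, 187, 158, 148 and 165 CPM at 24M, and the groups overlapped (log2 fold change 0.18 ± 0.14, SE, edgeR adjusted p = 0.411). In the paired-end samples it stood at 108, 156 and 129 CPM at 3M and at 144, 156 and 169.8 CPM at 29M. The log2 fold change at 29M was 0.26 ± 0.10 (SE, edgeR adjusted p = 0.194).

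Ermn (ENSMUSG00000026830, chromosome 2, 58045113 to 58052864, minus strand) encodes ermin, an actin-binding protein of the oligodendrocyte cytoskeleton that appears late in differentiation. It had the largest fold change of the 9 genes at both ages. In the 3M single-end samples Ermn stood at 55.1, 56.5, 40.2, 84.0 and 89.7 CPM, and at 24M at 98.3, 113, 112, 84.4 and 96.9 CPM. Of the samples at 24M, 1 (replicate 5) lay below the highest 3M sample. The log2 fold change was 0.64 ± 0.18 (SE, 95% confidence interval 0.25 to 1.02), and the edgeR adjusted p of 0.0525 missed the threshold. In the paired-end samples Ermn stood at 55.0, 74.1 and 66.3 CPM at 3M and at 82.4, 88.5 and 90.0 CPM at 29M. The groups did not overlap, and the log2 fold change of 0.41 ± 0.08 (SE, 95% confidence interval 0.23 to 0.60) passed the adjusted p (edgeR, 0.017) but not the fold change threshold. Across all genes tested at 29M, 11.9% lay higher without overlap, and Ermn was the only one of the 9 to do so. No myelin gene lay lower without overlap at either age (10.5% of all genes at 29M and 3.42% at 24M), and none lay higher at 24M (3.15%).

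The call of Ermn depended on single libraries and on the method. At 24M it was called when replicate 5 (adjusted p = 0.00908) or 4 of the 3M single-end group was left out, or 24M replicate 4. Without 24M replicate 4, replicate 1 stayed in as the sample of that pair, so no sample was lost. It was also called with DESeq2 (adjusted p = 0.0419). At 29M its fold change passed 0.5 without 3M paired-end replicate 2 alone. Its adjusted p at 29M was above 0.05 without replicate 3 of the 3M paired-end group and without replicate 1 or 3 at 29M. The fold change itself was above 0 in all 17 fits that left out 1 library, where it ran from 0.50 to 0.78 for 24M and from 0.31 to 0.52 for 29M. On the opposite strand 237 exon bases of Ermn are shared with Galnt5, which held between 2 and 16 counts per library (2, 6 and 5 at 3M and 11, 5 and 16 at 29M in the paired-end libraries). The part of the shared bases in the values of Ermn was not tested.

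**Figure D2:**
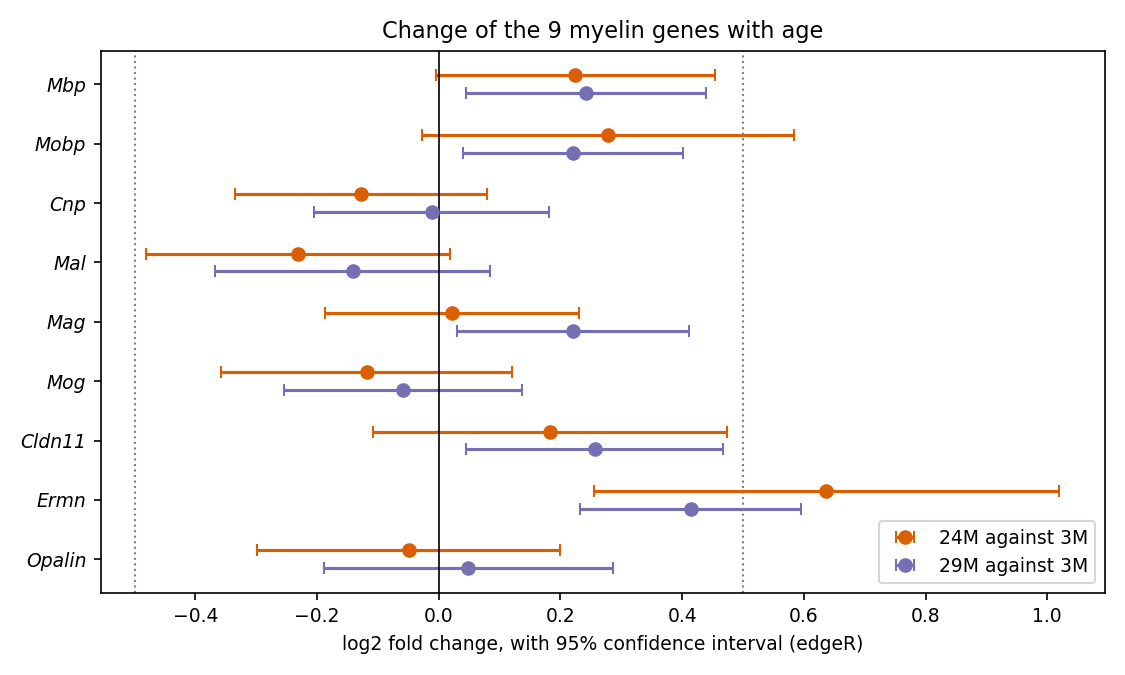
Log2 fold change of each myelin gene (horizontal axis) at 24M (orange, n = 5 against 5) and 29M (violet, n = 3 against 3), with 95% confidence intervals from edgeR and dotted lines at the fold change threshold of 0.5. Ermn lies farthest to the right at both ages (0.64 and 0.41), and Mal, Mog and Cnp lie below 0 at both.

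Over the 9 genes the median log2 fold change was 0.022 at 24M, where 5 lay above 0, and 0.22 at 29M, where 6 lay above 0. Over all genes tested the medians were -0.00319 and -0.0021. The direction agreed between ages for 8 of the 9 genes, and the comparisons share no 3M library. When 1 library was left out, the agreement ran from 5 to 9 genes. It was 5 without 3M paired-end replicate 2, where all 9 genes lay above 0 at 29M, and 6 without 29M replicate 1. Without that 3M library Mbp (0.38), Mobp (0.35), Mag (0.35) and Cldn11 (0.40) passed the adjusted p at 29M beside Ermn, and without 3M paired-end replicate 1 each of these 4 had 0.13. At 24M the changes were smallest without 3M single-end replicate 3 and largest without replicate 4 for Mbp (0.14 and 0.32), Mobp (0.16 and 0.43) and Cldn11 (0.073 and 0.30), and none of these 3 passed. Mal passed the adjusted p at 24M without replicate 3 (-0.33, edgeR adjusted p = 0.0496). At 24M the median rested on Mag, and it ranged from -0.066 without 3M single-end replicate 3 to 0.091 without replicate 4. A test of the difference between the age effects (29M minus 24M, all 4 groups in 1 edgeR fit) found none for the 9 genes, with adjusted p from 0.69 to 0.987. No gene of the 16055 tested passed this test (0%), and none did with DESeq2. Without 3M single-end replicate 5, 57 genes passed, none of them among the 9. At an unadjusted p under 0.05, 10.4% of all genes and none of the 9 did. For Ermn the difference was -0.23 (95% confidence interval -0.78 to 0.33) and for Mag 0.20 (-0.14 to 0.54), so both intervals hold 0 and differences of such sizes alike.

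The myelin genes varied together from sample to sample. In 3M single-end replicate 3 all 9 lay below their group mean, by 0.46 on average on the log2 scale. In replicates 4 and 5 all 9 lay above it, by 0.33 and 0.19. Among the paired-end samples all 9 lay below the group mean in 3M replicate 1 and above it in 3M replicate 2. The aged samples departed less from their means: 24M replicate 5, with all 9 genes low, differed by -0.13, and 29M replicate 1 by -0.09. After the group means were taken off, the 36 pairwise Pearson correlations over 16 samples ran from 0.654 (Mag and Ermn) to 0.964 (Mag and Cnp), with a median of 0.859. The genes of a sample share its library, its depth and its dissection.

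**Figure D3:**
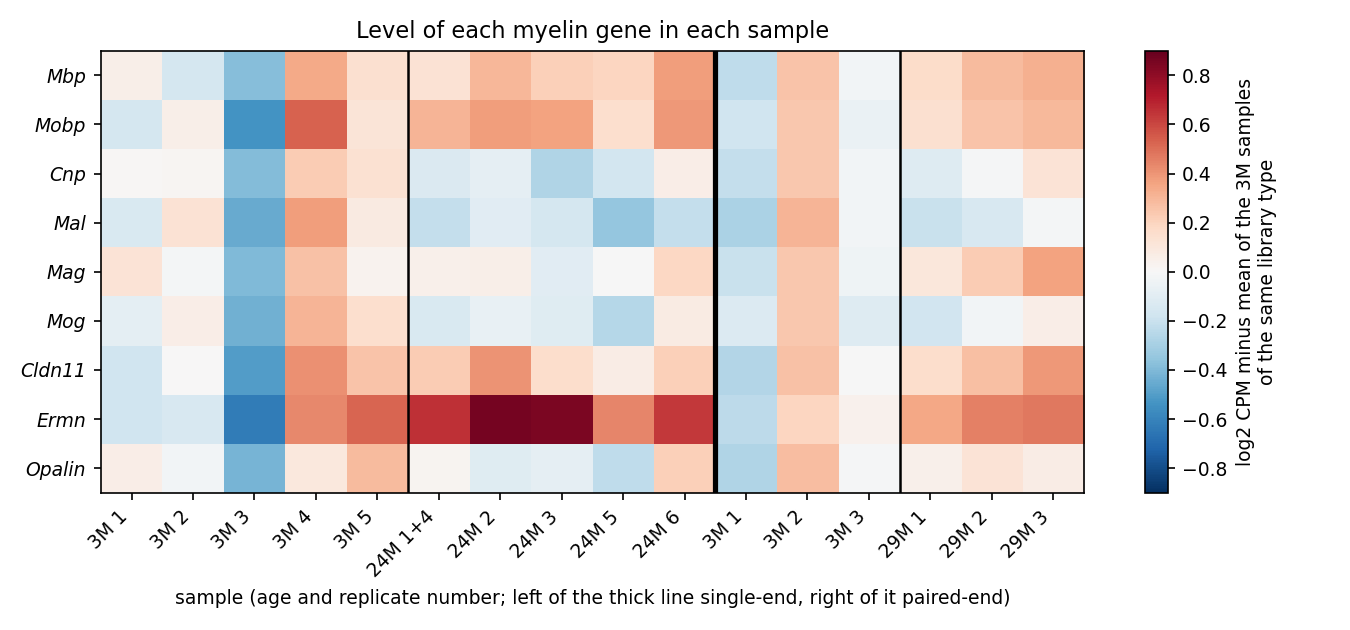
Log2 CPM of the 9 myelin genes (rows) in the 16 samples (columns) minus the mean of the 3M samples of the same library type, where red is higher and blue lower; thin vertical lines part the age groups and the thick line parts single-end from paired-end samples. The column of 3M single-end replicate 3 is blue in all 9 rows, and the row of Ermn is the reddest at 24M.

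The spread of the 9 genes was wider among the 3M samples than among the aged samples. The SD of log2 CPM was larger at 3M than in the aged group for 9 of 9 genes in both comparisons. Among genes of at least 20 CPM the same was true of 65.4% at 24M and 57% at 29M. For Ermn the SD was 0.48 at 3M and 0.17 at 24M, and for Mobp 0.39 and 0.10. For Opalin it was 0.28 at 3M and 0.04 at 29M. Because the 9 genes vary together, their 9 spreads are not separate observations.

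Other values moved with this shared variation. The 3M single-end library with the lowest myelin levels, replicate 3, also had the lowest summed level of 7 choroid plexus markers, 2042 CPM in a group that reached 8460 CPM. Over the 16 samples the median correlation of the choroid plexus markers with the mean of the 9 myelin genes was 0.744, that of 8 neocortical markers 0.549, of 10 striatal markers 0.492 and of 13 neuronal markers -0.21. Over all genes the median was 0.0162. The part of such tissue in the myelin values was not tested.

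The genes whose sample-to-sample pattern was most like that of the 9 were named by rank of the correlation, with no test. Galnt6, a glycosyltransferase gene, had a Pearson r of 0.994 (Spearman 0.997) with the mean of the 9 genes over 16 samples. It was 0.986 without 3M single-end replicates 3 and 4, the 2 samples whose myelin genes lay farthest from their group mean. Chn2 followed with 0.983, Tmem88b with 0.977 and Bcas1 with 0.97. Also among the first 10 were Cers2 (0.951), Plekhb1 (0.942), Evi2a (0.935) and Fa2h (0.924). Cers2 and Fa2h encode enzymes that make the long-chain and hydroxylated lipids of myelin. Of the 100 genes ranked first, 13 were on a list of 30 other mature oligodendrocyte genes and 4 on a list of 11 myelin lipid enzymes. In all, 20 were on a list of the oligodendrocyte lineage and its axon contacts and 1 on another list. Most of the 100 were thus on none of the lists examined, and the cells that express them were not tested. The median correlation was 0.799 for the first list and 0.816 for the second. For transcription factors of the lineage it was 0.432, and for precursor genes -0.0171.

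Since the genes moved together, the sequences before their starts were read from the RefSeq promoter table (GRCm38.p6) for the 8 genes other than Mbp, in 10 windows. Motifs bound by factors of the oligodendrocyte lineage were searched on both strands in the 250 bases before the start: CTGGCAC and CTGGTAC (sites of MYRF), ACAAAG and AACAAT (SOX family) and CAGCTG (an E-box). ACAAAG was found for Mobp, Cnp, Mag and Opalin, and in 16.5% of 32851 promoters. CTGGCAC was found for Cnp and Mag (4.19% of promoters) and CTGGTAC for Mog (1.83%). AACAAT (9.42%) and CAGCTG (13%) were found for none of the 8. Mobp, Cnp and Mog are shown because they hold matches, and Ermn and Mal because their values diverged most with age. Bases before the annotated gene are printed 5′ to 3′ on the gene's strand, with capitals for matches on either strand, so that CTTTGT is ACAAAG and GTACCAG is CTGGTAC on the other strand.
Mobp, chr9:120149492-120149706, plus strand: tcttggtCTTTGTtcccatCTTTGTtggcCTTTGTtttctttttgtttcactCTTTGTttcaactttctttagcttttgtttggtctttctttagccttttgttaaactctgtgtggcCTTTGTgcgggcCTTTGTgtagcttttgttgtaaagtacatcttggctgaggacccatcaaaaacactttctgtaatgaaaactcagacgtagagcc
Cnp, chr11:100574689-100574903, plus strand: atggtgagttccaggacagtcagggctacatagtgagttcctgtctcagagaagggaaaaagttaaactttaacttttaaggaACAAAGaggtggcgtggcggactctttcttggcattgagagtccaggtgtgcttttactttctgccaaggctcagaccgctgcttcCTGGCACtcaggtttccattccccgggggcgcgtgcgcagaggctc
Mog, chr17:37023399-37023648, minus strand: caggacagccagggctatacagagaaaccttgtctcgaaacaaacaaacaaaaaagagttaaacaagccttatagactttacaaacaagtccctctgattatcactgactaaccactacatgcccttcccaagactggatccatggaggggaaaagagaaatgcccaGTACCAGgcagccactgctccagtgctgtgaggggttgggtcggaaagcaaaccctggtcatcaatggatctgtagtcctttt
Ermn, chr2:58052865-58053114, minus strand: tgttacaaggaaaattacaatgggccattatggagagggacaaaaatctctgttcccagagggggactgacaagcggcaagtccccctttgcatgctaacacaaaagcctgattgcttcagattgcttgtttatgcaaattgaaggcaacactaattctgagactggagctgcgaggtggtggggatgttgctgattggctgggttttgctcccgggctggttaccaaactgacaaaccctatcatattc
Mal, chr2:127656696-127656945, minus strand: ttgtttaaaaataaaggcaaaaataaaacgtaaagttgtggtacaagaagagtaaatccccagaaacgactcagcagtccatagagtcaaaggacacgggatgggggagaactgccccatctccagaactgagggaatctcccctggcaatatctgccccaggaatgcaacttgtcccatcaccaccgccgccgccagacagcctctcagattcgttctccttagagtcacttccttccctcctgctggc
The Mobp promoter holds 6 copies of CTTTGT, and it is the only 1 of 32851 windows with at least 6. The promoters of Ermn and Mal hold none of the motifs. A match of letters is not evidence that a factor binds there, and the absence of a match concerns these letters in this window only.

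Since the 9 genes moved together between samples, each gene was also set against the geometric mean of the 9 genes in the same sample. This measure was chosen after the data were seen, and by construction the 9 values sum to 0 in each sample, so a gain of one gene lowers the others. On it, Ermn was higher in every aged sample than in every 3M sample of its library type, and Mal, Cnp and Mog were lower in every aged sample, at both ages. Relative to the 9 genes, Ermn stood at -1.87, -1.88, -1.92, -1.65 and -1.42 on the log2 scale at 3M and at -1.19, -1.07, -0.997, -1.30 and -1.33 at 24M. In the paired-end samples it stood at -1.60, -1.65 and -1.52 at 3M and at -1.29, -1.30 and -1.34 at 29M. The gain of Ermn was thus 0.57 at 24M and 0.28 at 29M.

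Mal stood on this scale at 0.33, 0.56, 0.42, 0.46 and 0.31 at 3M and at 0.10, 0.13, 0.16, 0.08 and -0.02 at 24M, a difference of -0.32. Its paired-end values were 0.21, 0.33 and 0.28 at 3M and 0.02, -0.03 and 0.03 at 29M, a difference of -0.27. Mal thus lay near the middle of the 9 genes in the aged samples and above it in the young ones. Cnp differed by -0.23 at 24M and -0.15 at 29M, and Mog by -0.22 and -0.19. Mobp (0.20 and 0.08), Mbp (0.13 and 0.11) and Cldn11 (0.10 and 0.13) lay on the side of Ermn, and these 3 did not overlap between groups at 29M alone. Mag differed by -0.08 at 24M and 0.08 at 29M, and Opalin by -0.15 and -0.07. The sign was the same at both ages for 8 of the 9 genes, Mag being the exception.

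Measured against the same 9-gene mean, 0.734% of all genes were higher without overlap at 24M and 1.7% lower, against 1 and 3 of the 9. At 29M the shares were 2.87% and 5.78%, against 5 and 3 of the 9. The members' counts cannot be read directly against these shares, because the members make up the reference. With libraries scaled on the 9 genes in edgeR, Ermn changed by 0.56 in log2 units at 24M (adjusted p = 0.0437), and the value at 29M was 0.28 (adjusted p = 0.705), and none of the other 8 passed the adjusted p at either age (1.84% and 0.901% of all genes did).

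**Figure D4:**
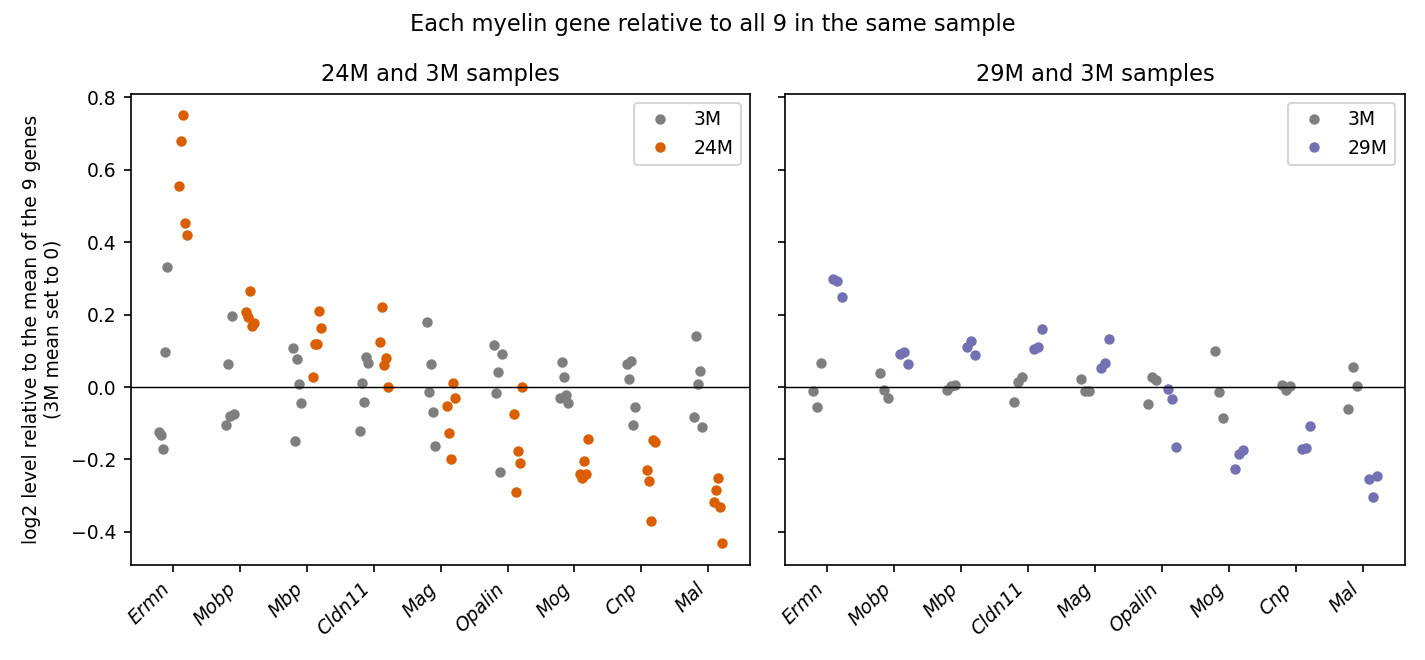
Log2 level of each myelin gene relative to the geometric mean of the 9 in the same sample, with the 3M mean set to 0, for the single-end samples (left panel) and the paired-end samples (right panel); points are samples. Ermn is higher in all aged samples than in all 3M samples in both panels, and Mog, Cnp and Mal are lower in both.

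The same shift can be read from plain ratios of counts, given here as a description since the pairs of genes were picked after their values were seen. For every 100 counts of Mbp, the 3M single-end samples held 10.8, 15.02, 11.7, 12.6 and 11.7 counts of Mal and the 24M samples 9.68, 9.30, 9.51, 8.44 and 8.14. The paired-end samples held 9.92, 10.7 and 10.3 at 3M and 7.99, 7.63 and 8.16 at 29M. For every 100 counts of Mal there were 21.6, 18.4, 19.7, 23.2 and 30.3 counts of Ermn at 3M and 40.8, 43.5, 44.7, 38.4 and 40.2 at 24M. Paired-end values were 28.4, 25.4 and 28.7 counts of Ermn per 100 of Mal at 3M and 40.3, 41.6 and 38.7 at 29M. These ratios do not depend on how libraries are scaled.

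Of 30 other genes of mature oligodendrocytes, 6 passed both thresholds in the upward direction at 24M and 5 at 29M, and none downward, beside 1.34% of all genes called higher at each age. These lists too were chosen with earlier results of these data known. Klk6, a secreted serine protease, rose most, by 2.51 on the log2 scale at 24M and 2.75 at 29M (edgeR adjusted p = 0.00288 and 8.34e-06). Its level was low, at 1.78 CPM at 3M and 10.1 CPM at 24M. Apod, which encodes the lipid carrier apolipoprotein D, rose by 0.95 and 1.14 on the log2 scale. Il33, a cytokine of the interleukin-1 family, rose by 0.83 and 0.57, and Trf, which encodes the iron carrier transferrin, by 0.58 and 0.92. Hapln2, a hyaluronan link protein of the nodes of Ranvier, rose by 0.55 and 0.77. Anln, an actin-binding protein like Ermn, rose at 24M by 0.64 and passed the adjusted p alone at 29M (0.48). Car2 (0.43 and 0.26) passed the adjusted p alone at both ages, and Gjb1 (0.39) at 29M. Of the fits that left out 1 library, Hapln2 was called in 4 of 11 at 24M, Trf in 9 of 11 at 24M and Il33 in 5 of 6 at 29M, and the other calls of this list held in all. Car2 passed the adjusted p in 10 of 11 such fits at 24M and 6 of 6 at 29M, and Gjb1 in 0 of 6 at 29M (adjusted p from 0.0603 to 0.164). Some of these genes, Apod, Il33 and Trf among them, are also expressed by other cells of the brain.

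Whether a gene of this list was called or not, 24 of the 30 lay above 0 at 24M and 26 at 29M, with medians of 0.18 and 0.19. The list's summed level was 4014 to 9473 CPM at 3M and 6885 to 8404 CPM at 24M, and so overlapped. Much of this sum was Enpp2, a gene also abundant in choroid plexus, with 3054 CPM at 3M (range 1079 to 4904 CPM). Without Enpp2, a step chosen after its values were seen, the sum of the other 29 genes was 2935 to 4599 CPM at 3M and 4218 to 4928 CPM at 24M, which overlapped too. Among 11 enzymes of myelin lipid synthesis, Aspa, which releases acetate from N-acetylaspartate, was called higher at 24M (log2 fold change 0.66, edgeR adjusted p = 0.0389) and kept the call in 5 of 11 fits without 1 library. At 29M it was not called (0.33). Sgms1 (0.28) passed the adjusted p alone at 24M, and in 5 of 11 such fits. The list's medians were 0.18 and 0.11.

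No call was made among 11 transcription factors of the lineage. St18 (0.44) passed the adjusted p alone at 24M, and in 3 of 11 fits without 1 library. The most abundant of them, Zeb2 (0.25 and -0.01) and Olig1 (-0.13 and -0.01), did not pass, and the medians were 0.03 and -0.01. Of 14 genes of precursors and early stages 13 were measured, and 1 was called lower at both ages, beside 0.638% of all genes called lower at 24M and 0.113% at 29M. This was Gpr17, a receptor of cells that are about to mature, which fell from 55.2 to 27.8 CPM at 24M and from 55.1 to 28.5 CPM at 29M. Its log2 fold change was -0.997 for 24M and -0.953 for 29M (edgeR adjusted p = 0.000109 and 2.79e-05), and it was called in all 17 fits that left out 1 library. Tnr (-0.31) passed the adjusted p alone at 29M. The medians of the list were -0.03 and -0.04, so its other genes lay on both sides of 0.

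No call was made among 14 genes of the axoglial junction and the node. Nfasc, whose product anchors the paranodal loops to the axon and clusters channels at nodes, passed the adjusted p alone at both ages (-0.28 and -0.17), and in 11 of 11 and 1 of 6 fits without 1 library. Cntn1, an abundant gene of this list, did not pass (0.17 and -0.03). Of 7 genes of peripheral myelin 4 were expressed enough to be tested. Pmp22, which in the brain is not confined to myelinating cells, rose by 0.61 and 0.69 on the log2 scale (edgeR adjusted p = 0.00288 and 0.000198). No other gene of the 4 was called, beside 1.34% of all genes called higher at each age. Of the 4 genes, 1 lay above 0 at 24M and 2 at 29M, and the medians were -0.33 and 0.02. The rise of Pmp22 was thus not shared by the list.

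**Figure D5:**
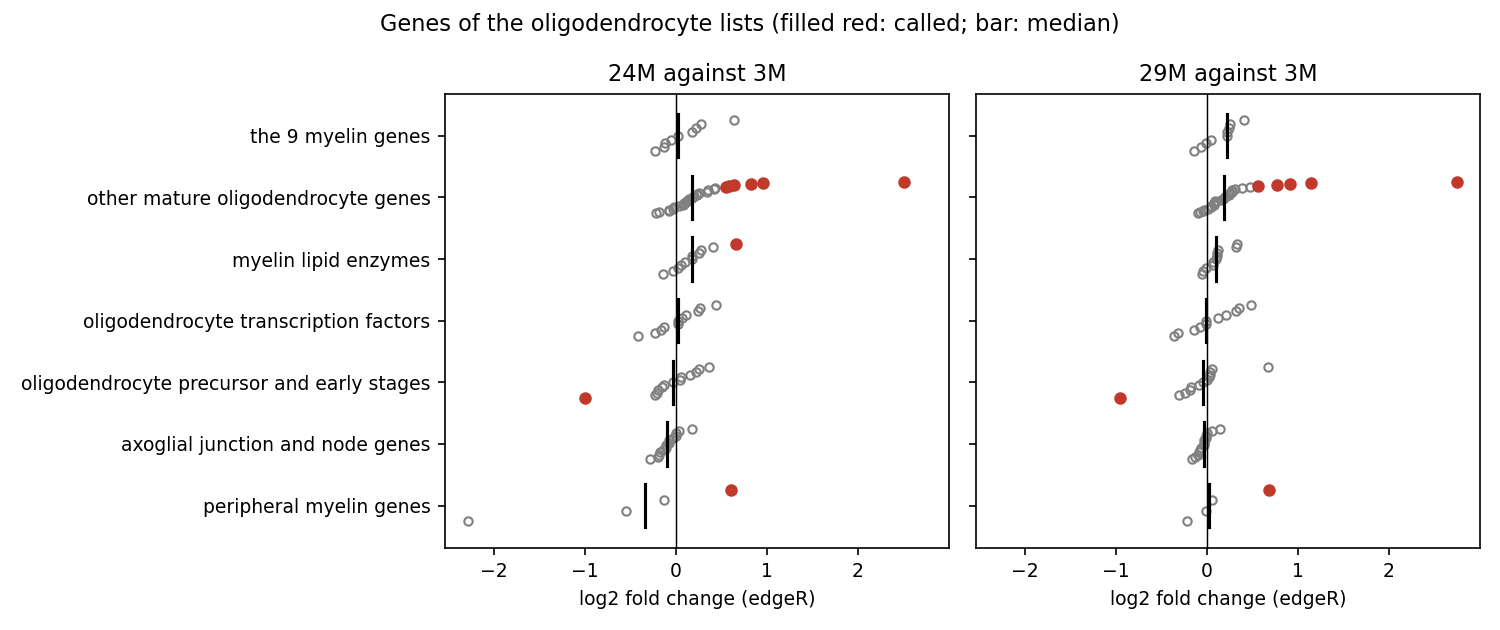
Log2 fold change (horizontal axis) of the genes in the myelin set and 6 further lists at 24M (left panel) and 29M (right panel), where each circle is a gene, filled red circles were called and vertical bars are medians. The 9 myelin genes have no filled circle, while the other mature oligodendrocyte genes have 6 at 24M and 5 at 29M, with Klk6 farthest to the right, and Gpr17 lies alone on the left in the precursor list.

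Markers of other cells were measured in the same libraries. None of 13 neuronal markers was called, with medians of -0.05 and -0.06. Of 11 astrocyte markers Gfap was called higher (0.66 and 0.80), and of 10 microglial markers P2ry12 at 24M (0.52) and Tmem119 at 29M (0.51). All 10 microglial markers lay above 0 at both ages. Their summed level was 369 to 422 CPM at 3M and 469 to 501 CPM at 24M. In the paired-end samples it was 366 to 376 CPM at 3M and 464 to 475 CPM at 29M. The astrocyte sum was likewise higher without overlap, with 7279 to 7920 CPM at 3M and 8017 to 8532 CPM at 24M. Its paired-end values were 7143 to 7309 CPM at 3M and 7743 to 7861 CPM at 29M. Of the 8 endothelial markers Cldn5 was called lower at 24M (-0.60), though 5 of the 8 lay above 0 and their median was 0.13. Of the neocortical markers Lamp5 (-0.65) and Cux2 (-0.53) were called lower at 24M. Of the 8 neocortical markers 1 lay above 0 at 24M. Their summed level was 381 to 397 CPM at 24M, below the 423 to 525 CPM of the single-end 3M samples. At 29M the sums overlapped, with 337 to 366 CPM at 3M and 335 to 359 CPM at 29M. Of 10 striatal markers 0 lay above 0 at 24M (median -0.68) and none was called. Their sums overlapped, with 145 to 614 CPM at 3M and 153 to 196 CPM at 24M. At 29M 4 of the 10 lay above 0 (median -0.06) and 1 was called lower, beside 0.113% of all genes. No thalamic or choroid plexus marker was called at either age. The part of these differences in the myelin values was not tested.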

How the data were processed

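Hippocampal RNA of 17 libraries was sequenced with TruSeq polyA libraries. The authors aligned reads to GRCm38.p2 with STAR 2.3.0, used HTSeq for counting with the overlap mode as the only setting named as non-default, and deposited the raw counts of each gene. Lines naming no gene were dropped before scaling (reads outside features made up 8.59% to 15.87% of each file). The annotation used for counting and whether the kit marks strand are not given in the sources used here, and no strand setting is named.

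Tests used the quasi-likelihood method of edgeR 4.0.16 with TMM scaling and filterByExpr in R 4.3.3, each age against its own 3M group, with Benjamini-Hochberg adjustment over all genes tested. CPM use TMM library sizes, and SE is the absolute log2 fold change over the root of F. Intervals are 95% confidence intervals of the log2 fold change between groups, judged against the spread between samples, and are not ranges of sample values. Gene positions and exon lengths are from GENCODE M21, which named 36602 of 38355 identifiers. Lhfpl3 had no value. The rounded mean of 24M replicates 1 and 4 entered as 1 sample.

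The members and lists were chosen with earlier results of these data known. Named genes were the 9 members, the genes called on the oligodendrocyte lists (otherwise the 2 most abundant), the 10 genes most correlated with the members, and up to 3 called genes of each other list. A few genes that meet this rule are not reported here. Genes past the adjusted p alone are added. Alternatives were DESeq2 1.42.0, its size factors, other filters, all 4 groups in 1 fit, a replicate block, the pair kept apart or left out, and each library left out. Scaling on the 9 genes was added after the data were seen. The scripts were tested on simulated data. Proteins were not used here. The promoter of Mbp was not used here.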

Additional observations from a re-analysis of the deposited data

Results flagged for a closer look

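In groups of 5 samples, the gap between the most extreme sample and its neighbour was divided by the range of the group (Dixon's critical value 0.71). No myelin gene stood out. Of 66 groups tested over the myelin genes and the lists, 5 list sums did, where chance gives about 3.3. In 3M single-end replicate 4 the summed level of striatal markers was high (0.853), as was that of neocortical markers (0.763), and that of oligodendrocyte precursor genes was low (0.812). This library was also the highest of its group for 7 of the 9 myelin genes, and without it the log2 fold change at 24M ranged from -0.13 for Mal to 0.75 for Ermn. In 3M single-end replicate 1 the summed neuronal markers were high (0.756), and in 24M replicate 6 the thalamic markers (0.719). The part of these in the myelin values was not tested.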

How the results depend on the processing

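The myelin genes called at 24M numbered 1 (Ermn) with DESeq2, without a filter, with all 4 groups in 1 fit, with 24M replicates 1 and 4 kept apart and with libraries scaled on the 9 genes, and 0 to 1 when 1 library was left out; past the adjusted p alone there was 1 under each of these 5 and 0 to 1 when 1 library was left out, the gene being Mal without 3M single-end replicate 3 and Ermn otherwise. The adjusted p of Ermn at 24M was 0.0158 to 0.143 over 8 settings, single libraries left out and the 9-gene scaling not counted. At 29M the number called was 0 to 1 when 1 library was left out. Past the adjusted p alone at 29M there were 6 without a filter, 0 with all 4 groups in 1 fit, 2 with the replicate block, 0 with scaling on the 9 genes, and 0 to 5 when 1 library was left out, with 5 without 3M paired-end replicate 2. No myelin gene passed the difference between ages under any setting run.

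Samples were not treated as paired by replicate number. Same-numbered deviations correlated at -0.251 to 0.23 in the paired-end groups and at -0.317 to 0.0761 in the single-end groups. Not every sample correlated best with its own number. With so few samples, each taken relative to its group mean, these correlations cannot decide whether same-numbered samples were handled together. With the replicate block Ermn had 0.81 (adjusted p = 0.143) at 24M and 0.42 (0.00221) at 29M. The block gave 83 genes called in place of 310 at 24M and 225 in place of 219 at 29M. Under it Hapln2 (adjusted p = 0.14), Anln (0.0632) and Aspa (0.14) were not called at 24M. No other gene named from the oligodendrocyte and myelin lists lost a call at that age. The called markers of other cells and regions were not followed under it.

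Small effects changed sign. The difference between ages became -0.042 for Mbp, -0.014 for Mal and -0.049 for Cldn11 with the replicate block, and -0.012 for Mbp with the pair left out. Scaling on the 9 genes turned Mag at 24M to -0.082 and Opalin at 29M to -0.069. With 1 library left out, Mag at 24M ran from -0.066 to 0.091 and Opalin from -0.15 to 0.020. At 29M the ranges were -0.075 to 0.21 for Opalin, -0.12 to 0.077 for Mog, -0.11 to 0.12 for Cnp, -0.27 to 0.031 for Mal, -0.040 to 0.025 for Olig1, -0.039 to 0.011 for Zeb2 and -0.062 to 0.015 for Cntn1. For the difference between ages they were -0.10 to 0.14 for Mbp, -0.21 to 0.061 for Mobp, -0.024 to 0.18 for Mog, -0.051 to 0.25 for Mal, -0.031 to 0.25 for Opalin and -0.058 to 0.21 for Cldn11. The 9-gene median ran from -0.066 to 0.091 at 24M and from 0.13 to 0.35 at 29M. The cause was not tested. All genes called numbered 518 with all 4 groups in 1 fit and 163 with the pair left out at 24M, and 441 without a filter and 86 with all 4 groups at 29M. They numbered 119 to 568 at 24M and 124 to 221 at 29M when 1 library was left out. Opalin, with as few as 230 counts in a library, was the myelin gene measured at the lowest depth.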
